A study of Homo sapiens with 4 samples.

Results

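The tetraspanin family was examined in K562 cells, an established line from human chronic myeloid leukemia, that carried either the RUNX1::ERG fusion gene or the empty vector. The family was taken as 33 named genes, chosen by membership, with earlier results of these data known. All 33 were found by NCBI gene number among the 25702 genes counted. K562 cells were transfected with the LeGO-iG2 plasmid, which co-expresses green fluorescent protein, with or without the RUNX1::ERG coding sequence, and each group had 2 biological replicates of poly(A)-enriched whole transcriptome sequencing (WTS). The labels list the empty vector genotype as control and give no further treatment for either group. Transfection was transient, and the study reports that its protocol reached most K562 cells. No sorting of transfected cells is stated for these libraries, so each value may average over cells with and without the plasmid.

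Tetraspanins are small proteins that span the membrane several times and gather integrins, proteases and signalling receptors into shared membrane patches. In blood cells they are best known from leukocytes and platelets, whose surface carries CD9 and CD151 beside the fibrinogen receptor, and CD63 is a standard marker of late endosomes and of secreted vesicles. Members with 8 cysteines in the large outer loop, called TspanC8, bind the membrane protease ADAM10 and help it out of the endoplasmic reticulum. Other members serve single tissues, such as the uroplakins of the bladder lining and peripherin-2 of photoreceptors.

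With RUNX1::ERG, CD82, TSPAN32, TSPAN33, TSPAN7 and TSPAN15 were higher and CD53 was lower than with the empty vector, and the abundant CD63, CD151, CD81, TSPAN13 and TSPAN3 did not pass the test. The abundant TSPAN14 and TSPAN17 did not pass it either. The DESeq2 Wald test called TSPAN14 higher (adjusted p = 0.047) and TSPAN17 lower (adjusted p = 0.035), both near the threshold of 0.05. Of the 33 genes, 27 passed the filter on low counts and were tested, and 6 did not. Of the 27, 5 rose and 1 fell at an adjusted p under 0.05 (edgeR's quasi-likelihood test, Benjamini-Hochberg adjustment over all genes), which is 22.2% of those tested. Among all 15394 genes tested, 4.79% were called, 3.64% higher and 1.15% lower. The filter also keeps a gene because it is high in 1 group, as it did for TSPAN15, TSPAN1 and TSPAN8, so the count describes the tested members and not the family.

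Library totals ran from 59695387 to 82352144 counts. The deposited counts of 1 to 10 were even in 66.7% to 68.9% of cases, which counting the 2 mates of a read pair separately would give, so fragments may be fewer than counts. A count of 0 allows 3 counts, or 0.0364 to 0.0503 CPM relative to the library total, and this covers counting error only. All other CPM values are relative to library sizes scaled with the TMM method of edgeR. The fusion was checked through its parts. With the empty vector, ERG stood at 4 counts in either library, and with RUNX1::ERG at 80443 in replicate 1 and 27218 in replicate 2. RUNX1 was at 63.8 ± 21.0 CPM and 593 ± 273 CPM (SD, n = 2), and reads of the plasmid and of the cell's own genes were not separated. Replicate 1 therefore carried more RNA of the fusion's parts. The embryonic and fetal globins that K562 cells make were abundant, with HBE1 at 6506 and HBG2 at 2563 CPM in the empty vector group. Of 8 K562 markers, all tested, EPOR rose (log2 fold change 0.87, but 0.59 and not called without RUNX1::ERG replicate 1) and 7 did not pass. DESeq2 called 2 of the 8, beside 7.27% of all genes it tested. HBZ, 1 of the 7, went from a mean of 1033 to 684 CPM without overlap of the groups (log2 fold change -0.59, edgeR adjusted p = 0.05003). The 8 markers, EPOR included, summed to 11734 to 12305 CPM and then to 12821 to 13908. Of the other cell types, 6 of the 8 tested of 13 megakaryocyte and platelet markers rose, with a sum of 106.1 to 106.6 CPM in the empty vector libraries and 467 to 537 with RUNX1::ERG, GP1BB at 0 counts and GP9 and TREML1 at no more than 2. Among 8 monocyte and granulocyte markers, 7 of them tested, CD14, LYZ and CSF3R rose, and the sum went from between 9.63 and 11.7 to between 22.0 and 25.9 CPM. Without RUNX1::ERG replicate 1, LYZ (adjusted p = 0.071) and CSF3R lost the call, the latter going from a log2 fold change of 2.32 to 1.35 (adjusted p = 0.57). Of 8 lymphocyte markers 4 were tested and 0 called by edgeR, 2 had an unadjusted p under 0.05 and DESeq2 called 2. Among all genes, 18.0% of those edgeR tested had an unadjusted p under 0.05, and DESeq2 called 7.27% of those it tested. The 2 lymphocyte markers under 0.05 went opposite ways, CD3D from a mean of 33.6 to 22.0 CPM and CD3G from 1.89 to 4.11 CPM. The lymphocyte sum, which is mostly CD3D, went from between 36.7 and 38.3 to between 27.1 and 29.1 CPM, with MS4A1 at 0. Of 8 epithelial and fibroblast markers, 3 of them tested, COL1A1 rose and KRT14 and LUM were at 0. The sum was 81.5 and 87.6 CPM in the empty vector libraries and 80.2 and 80.3 CPM with RUNX1::ERG. Within that sum, COL1A1 went from a mean of 3.88 to 20.8 CPM. EPCAM, the largest part, went from 78.3 to 56.8 CPM without overlap of the groups (log2 fold change -0.46, edgeR adjusted p = 0.14). The part of these markers in the tetraspanin values was not tested. In bulk RNA, fewer cells of a type and less RNA per cell cannot be told apart.

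The windows before the transcription start of called tetraspanins are shown because RUNX1::ERG keeps the DNA-binding domains of both RUNX1 and ERG. They are the 250 bases before each RefSeq start on GRCh38.p14, and RefSeq entries were found for CD82, TSPAN33, TSPAN15 and CD53, the last with 2 starts. TSPAN32 and TSPAN7 were not matched. Capitals mark matches to the Ets core with a following G on either strand, spelled out after the sequences.
CD53, chr1:110870960-110871209, plus strand: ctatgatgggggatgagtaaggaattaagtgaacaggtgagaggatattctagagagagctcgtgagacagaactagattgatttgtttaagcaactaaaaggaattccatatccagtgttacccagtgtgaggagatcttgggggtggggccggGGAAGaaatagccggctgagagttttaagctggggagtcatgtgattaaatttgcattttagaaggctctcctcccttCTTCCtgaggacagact
CD53, chr1:110872898-110873147, plus strand: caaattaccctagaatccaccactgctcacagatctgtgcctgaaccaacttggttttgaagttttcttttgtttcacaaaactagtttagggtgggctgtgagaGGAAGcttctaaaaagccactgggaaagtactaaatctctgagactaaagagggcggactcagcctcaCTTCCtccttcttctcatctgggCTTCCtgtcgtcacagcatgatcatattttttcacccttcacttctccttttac
TSPAN33, chr7:129144457-129144706, plus strand: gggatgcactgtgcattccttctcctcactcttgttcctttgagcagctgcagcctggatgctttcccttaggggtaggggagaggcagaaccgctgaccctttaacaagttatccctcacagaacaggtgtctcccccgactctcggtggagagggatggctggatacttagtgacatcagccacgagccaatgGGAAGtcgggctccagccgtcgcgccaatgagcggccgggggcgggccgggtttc
TSPAN15, chr10:69451215-69451464, plus strand: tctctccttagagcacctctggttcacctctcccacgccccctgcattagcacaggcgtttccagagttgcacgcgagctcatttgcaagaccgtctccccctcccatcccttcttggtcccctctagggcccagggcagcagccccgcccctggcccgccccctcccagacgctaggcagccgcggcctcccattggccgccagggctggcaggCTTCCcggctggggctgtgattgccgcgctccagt
CD82, chr11:44565413-44565662, plus strand: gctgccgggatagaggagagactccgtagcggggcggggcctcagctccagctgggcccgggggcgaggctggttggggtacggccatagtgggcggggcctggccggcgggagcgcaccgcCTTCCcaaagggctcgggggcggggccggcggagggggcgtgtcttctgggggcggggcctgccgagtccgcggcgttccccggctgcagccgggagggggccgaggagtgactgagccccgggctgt

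The Ets word searched was GGAAG, on both strands, and all 5 windows held it. It was present in 65.1% of 35116 windows of the same length, and in 34 of the 45 windows of the 25 tetraspanins with an entry. The Runt word, TGTGGT on both strands, was in none of the 5, in 11.0% of all windows and in 2 of the 45, at a start of TSPAN14 and at that of TSPAN31. The GATA word, AGATAA on both strands, was also in none of the 5, in 9.17% of all windows and in 2 of the 45, those of TSPAN12 and PRPH2. No match to one word overlapped a match to another in the tetraspanin windows. These matches describe letters, and binding was not measured here.

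The leukocyte and CD-named tetraspanins held the called genes with the highest levels, and of 8 genes, all tested, CD82 and TSPAN32 rose, CD53 fell and 5 did not pass. CD82, also known as KAI1, restrains cell movement and is counted among the metastasis suppressors. CD82 (NCBI gene 3732, GRCh37 chromosome 11, 44585977 to 44641908) had 581 and 776 counts in the empty vector libraries and 3036 and 1965 with RUNX1::ERG. In CPM these were 9.65, 11.0, 36.0 and 27.3. Both RUNX1::ERG libraries were well above both empty vector libraries, with replicate 1 the highest. The group means were 10.3 ± 0.96 and 31.7 ± 6.14 (SD, n = 2), a log2 fold change of 1.62 ± 0.21 (SE, edgeR adjusted p = 0.0017). Its call held with each library left out in turn, at log2 fold changes from 1.40 to 1.79.

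TSPAN32, known as TSSC6 or PHEMX, is made mainly in blood cells and takes part in signalling from the platelet fibrinogen receptor. TSPAN32 (NCBI gene 10077, GRCh37 chromosome 11, 2323227 to 2339434) was at 3.75 and 3.29 CPM with the empty vector and at 16.0 and 9.0 CPM with RUNX1::ERG. The groups did not overlap, and the RUNX1::ERG libraries differed from each other more than the empty vector libraries did. Its log2 fold change was 1.83 ± 0.30 (SE, edgeR adjusted p = 0.0071). Without RUNX1::ERG replicate 1 it was 1.35 and not called (adjusted p = 0.075). CD81 starts 57972 bases beyond the end of TSPAN32 on the same strand, and it was at 134 ± 12.8 and 129 ± 9.02 CPM (SD, n = 2), with overlapping groups and a log2 fold change of -0.05.

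CD53, a tetraspanin of nearly all leukocytes that binds lymphocyte integrins and receptors, was the only one called lower. CD53 (NCBI gene 963, GRCh37 chromosome 1, 111413810 to 111442544) was at 32.9 and 38.3 CPM with the empty vector and at 16.8 and 18.7 CPM with RUNX1::ERG. Every RUNX1::ERG value was under every empty vector value, and the replicates lay close together. The log2 fold change was -1.01 ± 0.19 (SE, edgeR adjusted p = 0.013), a fall to 0.498 of the empty vector level. Left-out libraries gave -1.12 to -0.89, and the call was lost without RUNX1::ERG replicate 1 (adjusted p = 0.095).

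**Figure D1:**
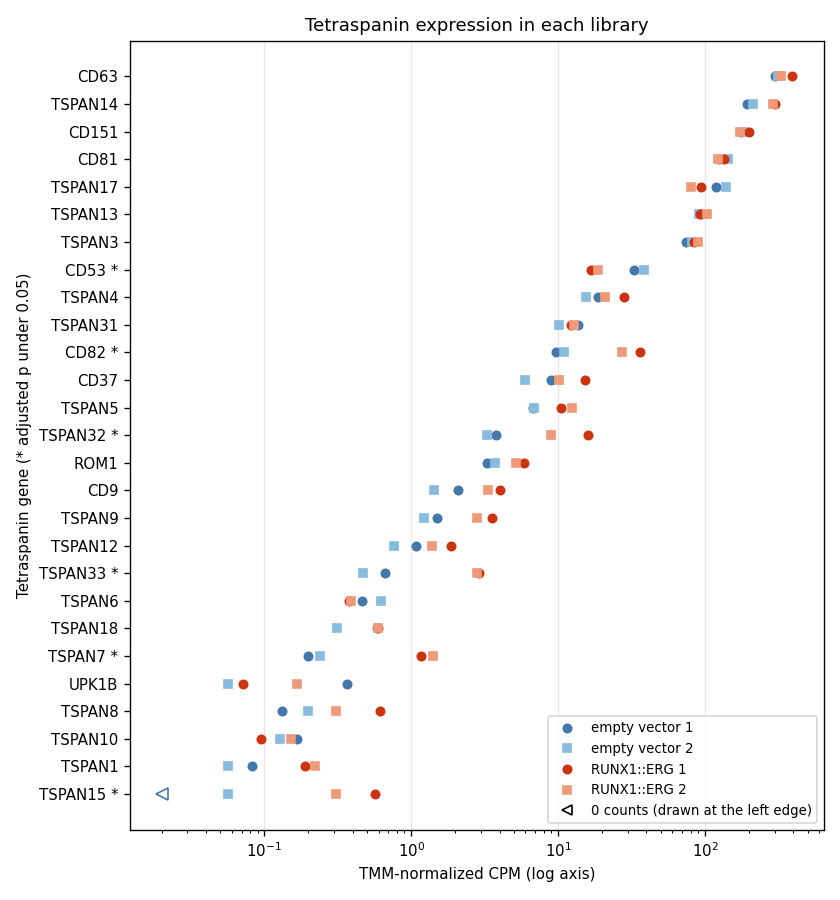
TMM-normalized CPM (x axis, log scale) of the 27 tested tetraspanins (y axis, ordered by the empty vector mean) in each of the 4 libraries; stars mark adjusted p under 0.05 from edgeR. CD63 is highest, TSPAN15 has no count in empty vector replicate 1, and the red RUNX1::ERG points of CD82, TSPAN32, TSPAN33 and TSPAN7 lie to the right of the blue ones while those of CD53 lie to the left.

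CD37, a B-cell tetraspanin, and CD9, a platelet and stem cell tetraspanin, were higher in both RUNX1::ERG libraries without passing the test. CD37 was at 8.98 and 5.91 CPM with the empty vector and at 15.3 and 10.1 CPM with the fusion, a log2 fold change of 0.77 (adjusted p = 0.17). For CD9 the values were 2.08 and 1.43 CPM against 4.0 and 3.32 CPM, a log2 fold change of 1.06 (adjusted p = 0.10). The lysosomal CD63 was at 298 and 313 CPM against 393 and 329 CPM, with a log2 fold change of 0.24 ± 0.15 (SE). CD151, a partner of laminin-binding integrins, overlapped between groups at 180 ± 5.47 and 186 ± 18.5 CPM (SD, n = 2), a log2 fold change of 0.05 ± 0.15 (SE). CD151 shares 6.6% of its annotated exonic bases with POLR2L on the opposite strand and CD37 shares 7.7% with TEAD2, and since no strand setting is given these reads cannot be told apart.

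The TspanC8 group, the ADAM10 regulators, had 6 members, all tested, of which TSPAN33 and TSPAN15 rose and 4 did not pass. TSPAN33, also called Penumbra, was first described in red cell precursors and is also found on platelets and activated B cells. TSPAN33 (NCBI gene 340348, GRCh37 chromosome 7, 128784724 to 128809540) had 40 and 33 counts with the empty vector and 244 and 203 with RUNX1::ERG. These were 0.664, 0.468, 2.89 and 2.82 CPM, so the 2 fusion libraries were nearly equal and both far above the control. The log2 fold change was 2.34 ± 0.38 (SE, edgeR adjusted p = 0.0064), and the call held with each library left out, at 2.10 to 2.60.

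TSPAN15, which directs ADAM10 to N-cadherin, had 0 and 4 counts with the empty vector and 48 and 22 with RUNX1::ERG (NCBI gene 23555, GRCh37 chromosome 10, 71211221 to 71267422). It was at or near the counting floor in the control and low in the fusion libraries, at 0.569 and 0.306 CPM. Its fitted log2 fold change of 3.79 ± 0.96 (SE, edgeR adjusted p = 0.0497) depends on the prior count given to the empty vector libraries and is no measure of size. Leaving out empty vector replicate 1 gave 2.91 (adjusted p = 0.062), leaving out replicate 2 gave 7.99, and leaving out RUNX1::ERG replicate 1 gave 3.28 (adjusted p = 0.33). Halved counts (adjusted p = 0.0503) and scaling by library totals (adjusted p = 0.062) also ended the call.

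The abundant TspanC8 genes were TSPAN14 and TSPAN17, and their values went apart. TSPAN14, a widely made partner of ADAM10, was at 195 and 213 CPM with the empty vector and at 299 and 290 CPM with RUNX1::ERG, a log2 fold change of 0.53 ± 0.15 (SE, adjusted p = 0.072). TSPAN17 was at 120 and 138 CPM against 93.7 and 80.6 CPM, a log2 fold change of -0.57 ± 0.16 (SE, adjusted p = 0.081). Neither passed the edgeR test, although no library of one group overlapped the other. With a library left out, log2 fold changes ran from 0.46 to 0.59 for TSPAN14 and from -0.68 to -0.46 for TSPAN17. Their ratio within a library, TSPAN14 over TSPAN17 in CPM, does not depend on library scaling and was examined after the values were seen. It was 1.63 and 1.54 with the empty vector and 3.19 and 3.60 with RUNX1::ERG, a log2 difference of 1.09. Each gene had already separated the groups, in opposite directions, so the ratio had to separate them too. With 2 libraries a group, the exact permutation test (two-sided) cannot go below the p = 0.333 it gave here and so decides nothing.

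Per kilobase of the canonical transcript, TSPAN17 was 56.3% and 57.8% of the summed TspanC8 level in the empty vector libraries and 39.3% and 36.3% with RUNX1::ERG. TSPAN14 was 40.9% and 39.8%, then 56.0% and 58.2%. Which of the 2 genes led depended on the length used. Over all annotated exons, TSPAN17 had 65.4% and 66.9% and then 48.2% and 44.9%, and TSPAN14 had 31.3% and 30.3% and then 45.1% and 47.3%, so that TSPAN17 still led in RUNX1::ERG replicate 1. In CPM without length, TSPAN14 was above TSPAN17 in every library. The share of TSPAN14 was higher, and that of TSPAN17 lower, in both RUNX1::ERG libraries on each of these scales. TSPAN5 was the third, at 2.12% to 2.37% and then at 3.24% to 4.13%. TSPAN33 went from between 0.175% and 0.279% to between 1.08% and 1.13%, and TSPAN15 was at most 0.347% in any library. The summed level per kb of canonical transcript was 85.8 and 96.6 CPM per kb against 96.3 and 89.7, with overlapping groups, while the sum in CPM was 322 and 359 against 407 and 386, without overlap. TSPAN5, which favours ADAM10 cleavage of Notch, was at 6.81 and 6.85 CPM against 10.4 and 12.4 CPM, a log2 fold change of 0.74 (adjusted p = 0.098). TSPAN10, a gene of pigment cells, had 8 to 11 counts in every library.

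**Figure D2:**
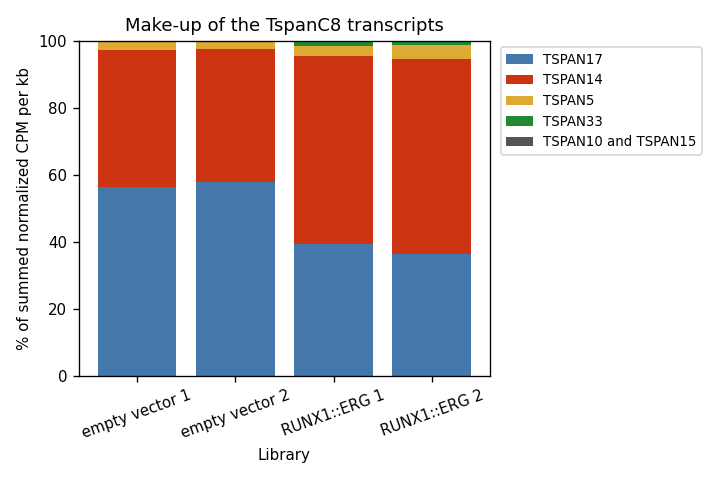
Share of the summed TspanC8 level (y axis, percent of normalized CPM per kb of canonical transcript) taken by each TspanC8 gene in the 4 libraries (x axis). TSPAN17 takes over 56% in both empty vector libraries and under 40% in both RUNX1::ERG libraries, where TSPAN14 is the larger share.

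Of the 15 other TSPAN genes, 11 were tested, TSPAN7 rose and 10 did not pass. TSPAN7, a neuronal tetraspanin first found on T-cell leukemia cells as TALLA-1, lies on the X chromosome (NCBI gene 7102, GRCh37, 38420795 to 38548174). TSPAN7 had 12 and 17 counts with the empty vector and 98 and 101 with RUNX1::ERG, or 0.199 and 0.241 against 1.16 and 1.41 CPM. Both fusion libraries stood above the control by a wide margin and close to each other. The log2 fold change was 2.53 ± 0.49 (SE, edgeR adjusted p = 0.015). It was 2.66 without RUNX1::ERG replicate 1 (adjusted p = 0.068) and 2.37 without replicate 2 (adjusted p = 0.054). An overlapping protein-coding locus on the same strand, not matched in the counts, shares 23.0% of the exonic bases of TSPAN7.

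TSPAN9, a tetraspanin of megakaryocytes and platelets that associates with the collagen receptor, was at 1.49 and 1.22 CPM with the empty vector and at 3.57 and 2.82 CPM with RUNX1::ERG. Its groups did not overlap, and the log2 fold change was 1.24 ± 0.34 (SE, adjusted p = 0.065). TSPAN12, a co-receptor for Norrin in retinal vessels, was at 0.922 ± 0.222 and 1.62 ± 0.343 CPM (SD, n = 2), a log2 fold change of 0.82 (adjusted p = 0.33). TSPAN4, which marks the retraction vesicles called migrasomes, was at 17.2 ± 2.27 and 24.4 ± 5.0 CPM (SD, n = 2), a log2 fold change of 0.50 (adjusted p = 0.24). TSPAN4 begins 2980 bases beyond CD151, and TSPAN18 begins 106106 bases beyond CD82, with TSPAN18 at 22 to 50 counts in a library and a log2 fold change of 0.42 (adjusted p = 0.76).

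TSPAN3 and TSPAN13 were abundant and near level. TSPAN3 was at 77.7 ± 4.96 and 86.6 ± 3.64 CPM (SD, n = 2), a log2 fold change of 0.15, and TSPAN13 at 92.3 ± 2.49 and 97.8 ± 7.90 CPM (SD, n = 2), a log2 fold change of 0.08, each with a standard error of 0.16. TSPAN31, amplified with its neighbour CDK4 in sarcomas, was at 11.9 ± 2.49 and 12.5 ± 0.457 CPM (SD, n = 2). CDK4 shares 26.1% of its exonic bases on the opposite strand, so the TSPAN31 counts are uncertain. TSPAN6, TSPAN8 and TSPAN1 had at most 52 counts in a library, with log2 fold changes of -0.50, 1.47 and 1.55 and adjusted p-values of 0.69, 0.26 and 0.34. TSPAN2, TSPAN11 and TSPAN16 had at most 2 counts in a library and TSPAN19 had 0 in all 4, so no difference was detectable at this depth.

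The uroplakin and photoreceptor genes were near silent except for ROM1, and 0 of the 2 tested were called by edgeR or by DESeq2. In edgeR, 1 had an unadjusted p under 0.05, as did 18.0% of all tested genes. ROM1, a disc rim protein of rod cells, was at 3.27 and 3.70 CPM against 5.86 and 5.19 CPM, a log2 fold change of 0.66 (adjusted p = 0.22), and 30.1% of its exonic bases overlap EML3 on the opposite strand. UPK1B had 22 and 4 counts with the empty vector and 6 and 12 with RUNX1::ERG. UPK1A and PRPH2 had at most 12 counts in a library and were not tested.

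**Figure D3:**
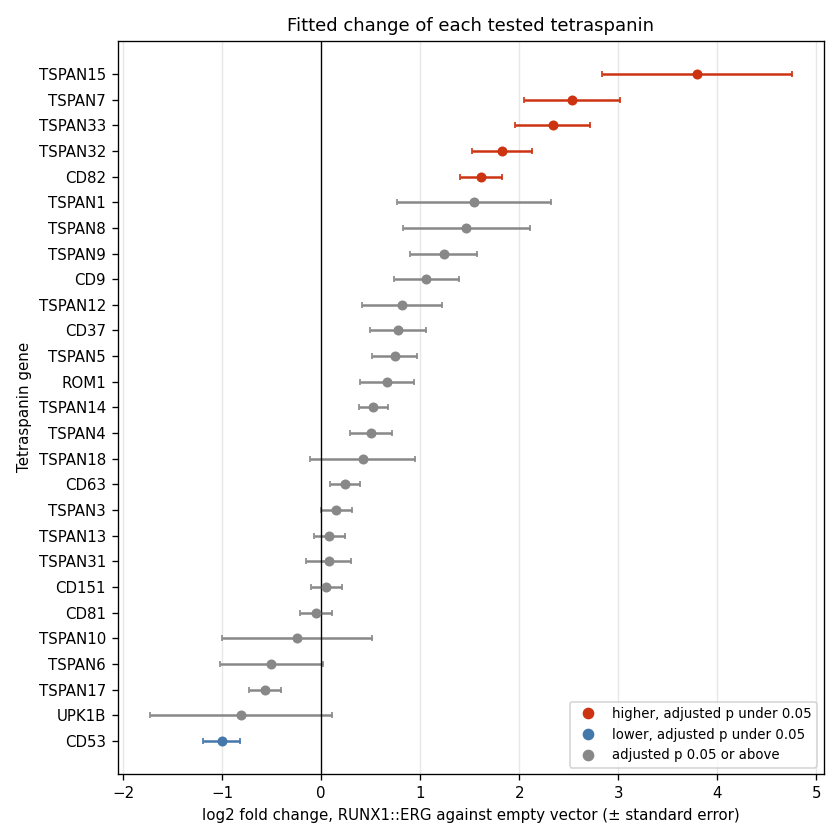
Log2 fold change of RUNX1::ERG against the empty vector (x axis, points with standard errors from edgeR) for the 27 tested tetraspanins (y axis, in order). Red marks the 5 genes called higher, blue CD53, the 1 gene called lower, and the bars are widest for TSPAN15 and UPK1B, which have few counts.

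Within the family, levels of different genes can be compared only per length. Per kilobase of the canonical transcript, CD63 led with 298 CPM per kb in the empty vector group, then CD151 with 116 and CD81 with 90.5, and each was above the next in every empty vector library. Together these 3 genes held 69.5% to 71.2% of the summed level per kb in the 4 libraries. The order below CD63 depended on the length. Over all annotated exons CD151 was at 46.2 CPM per kb and TSPAN13 at 46.1, then TSPAN17 at 24.7 and CD81 at 16.8, and CD63, CD151 and CD81 held 60.4% to 63.8%. By canonical length, TSPAN17 and TSPAN13, at 52.1 and 49.3 CPM per kb, changed places between the 2 empty vector libraries. TSPAN14 followed at 36.8 and CD53 at 23.6 CPM per kb, and TSPAN4 and TSPAN3, at 12.5 and 12.2, again changed places. CD82 rose from 4.67 to 14.3 CPM per kb and TSPAN32 from 2.55 to 9.07, so that CD82 exceeded CD53, which fell from 23.6 to 11.8, in RUNX1::ERG replicate 1 but not in replicate 2. With the empty vector, 16 of the 33 genes were at 1 CPM per kb or more.

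Across the 27 tested tetraspanins, 21 had a positive and 6 a negative log2 fold change, with a median of 0.53 against -0.002 for all 15394 tested genes. Both RUNX1::ERG libraries lay above both empty vector libraries in 18 of the 27, where 25.1% of all tested genes did, and below them in 3, where 22.1% of all tested genes did. TSPAN15, TSPAN1 and TSPAN8, which passed the filter through the RUNX1::ERG libraries, are among the 18 and the 21. With at least 10 counts in every library, 22 members remained, of which 15 lay above and 3 below. The share of all genes was not taken at that filter, so these 2 counts cannot be set beside the 25.1% and 22.1% above. The 7 members with both group means above 50 CPM, CD63, CD81, CD151, TSPAN3, TSPAN13, TSPAN14 and TSPAN17, had absolute log2 fold changes of at most 0.57. RUNX1::ERG replicate 1, with more fusion RNA, was above replicate 2 in 16 of the 27, beside 50.4% of all tested genes. The DESeq2 Wald test, the tool named in the methods, called 11 members, the same 6 and also CD9, TSPAN5, TSPAN9, TSPAN14 and TSPAN17, where it called 7.27% of all genes it tested.

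Of 47 known surface partners and substrates of tetraspanins 38 were tested, 4 rose, 2 fell and 32 did not pass. Beside these counts, 3.64% of all tested genes were called higher and 1.15% lower. Without ITGA2B and ITGB3, which are also among the megakaryocyte and platelet markers above, 36 were tested, of which 2 rose and 2 fell. With the exosome machinery, the palmitoyltransferases and the L6 family added, the lists held 78 genes, of which 64 were tested, 5 rose and 3 fell. Of 14 integrin subunits, 12 were tested and the platelet fibrinogen receptor chains ITGA2B and ITGB3 rose, with log2 fold changes of 4.22 and 4.64. ITGB1, the common partner chain of CD9, CD81 and CD151, was at 349 ± 2.06 and 406 ± 52.7 CPM (SD, n = 2), a log2 fold change of 0.22 (adjusted p = 0.52). Of 9 immunoglobulin superfamily partners 7 were tested, and ICAM1, an adhesion receptor for leukocyte integrins, fell by 0.95 on the log2 scale (adjusted p = 0.015; 0.052 without RUNX1::ERG replicate 2). The direct CD9 and CD81 partners IGSF8 and PTGFRN had log2 fold changes of -0.25 and -0.40 (adjusted p = 0.58 and 0.30).

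Among 9 proteases and shed substrates, with 7 tested, the ADAM10 substrate NOTCH1 rose from 56.8 ± 7.07 to 109 ± 7.06 CPM (SD, n = 2), a log2 fold change of 0.94 ± 0.17 (SE, edgeR adjusted p = 0.0094). ADAM10 itself was at 84.2 and 85.7 CPM against 99.95 and 123 CPM, a log2 fold change of 0.39 (adjusted p = 0.24). Of 15 other surface partners 12 were tested. IFITM3, an interferon-induced antiviral protein, rose by a log2 fold change of 1.18 (adjusted p = 0.0017), and LRP5, the Wnt co-receptor used with TSPAN12, fell by 0.75 on the log2 scale (adjusted p = 0.023). The LRP5 call was lost without RUNX1::ERG replicate 1 (adjusted p = 0.094) and without replicate 2 (adjusted p = 0.055).

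All 19 genes of the exosome machinery were tested, of which 1 rose, 1 fell and 17 did not pass, where 4.79% of all tested genes were called. RAB27B, a GTPase of granule and vesicle release, rose from 2.50 ± 0.333 to 12.8 ± 1.75 CPM (SD, n = 2), a log2 fold change of 2.36 ± 0.26 (SE, edgeR adjusted p = 0.00055). Its paralog RAB27A fell by 0.95 on the log2 scale (adjusted p = 0.046), from 271 and 153 CPM to 103 and 116 CPM. The RAB27A call rested on empty vector replicate 1, without which the log2 fold change was -0.49 (adjusted p = 0.18), and it was also lost without RUNX1::ERG replicate 1 (adjusted p = 0.15). SDCBP and PDCD6IP, the syntenin and ALIX genes of vesicle budding, overlapped between groups with log2 fold changes of 0.08 each. The 6 palmitoyltransferases, enzymes that attach the lipid on tetraspanins, gave 0 calls by edgeR, 0 with an unadjusted p under 0.05 and 0 by DESeq2. For all genes these shares were 4.79%, 18.0% and 7.27%. Of 6 genes of the L6 family, membrane proteins of like shape that are not tetraspanins, only TM4SF19 was tested, with a log2 fold change of 0.38 (adjusted p = 0.31).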

How the data were processed

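Each library came as 1 table of unnormalized counts per gene, as the authors deposited it. The submitters' processing notes list HISAT2 2.2.1, featureCounts 2.0.1 and hg19, with no annotation, strand or pairing setting. Symbols came from a RefSeq table of GRCh38.p14 (92.2% of genes matched), and gene positions and lengths from GENCODE on GRCh37. The members and lists were chosen with earlier results of these data known. Counts were analysed in R 4.3.3 with edgeR 4.0.16 (TMM, its low-count filter, quasi-likelihood test, Benjamini-Hochberg adjustment, threshold 0.05, no replicate block). Standard errors (SE) are the absolute log2 fold change over the square root of F. Levels per length used the canonical transcript. All members were named, and partner genes if called, besides ADAM10, IGSF8, PTGFRN, ITGB1, SDCBP and PDCD6IP. DESeq2 1.42.0, limma 3.58.1 voom, other scalings and filters, halved counts, a replicate block and left-out libraries were alternatives, where a lone library was assumed to vary like the other group. The procedure was also run on simulated counts with the same relative spread for every gene, which does not test the calls made here. Replicates differed beyond sampling noise. The genome-wide enrichment of the study was not repeated.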

Additional observations from a re-analysis of the deposited data

How the results depend on the processing

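With 2 libraries a group, each call rests on the spread edgeR pools across genes. Of the called members, CD82 and TSPAN33 kept their call in every fit run, and TSPAN15, CD53, TSPAN32 and TSPAN7 lost it in at least 1, as given above. No member changed direction under another scaling, filter or test, or with the block. Without a filter, 9 tetraspanins were called higher and 2 lower, and 9 genes of the partner and vesicle lists higher and 6 lower, beside 7.38% of all genes. DESeq2 gave 9 higher and 2 lower tetraspanins, beside 7.27% of all genes. Library totals exchanged TSPAN15 for TSPAN14. The causes were not tested. With a library left out, the number called higher ran from 2 to 7 and the number lower from 0 to 2, with 2 and 0 without RUNX1::ERG replicate 1. The share of all genes called moved too, to 1.81% without that library, 4.72% without RUNX1::ERG replicate 2, 7.68% without empty vector replicate 1 and 8.32% without replicate 2. Signs changed with a library left out for CD81 (-0.15 to 0.048), CD151 (-0.053 to 0.14), TSPAN10 (-0.63 to 0.064), TSPAN13 (-0.015 to 0.16), TSPAN31 (-0.13 to 0.30) and the sparsely counted UPK1B (-1.62 to 1.03, log2 fold change -0.81 with all libraries).

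With the replicate block, 10 tetraspanins were called higher and 2 lower, and 11 genes of the partner and vesicle lists higher and 8 lower, beside 11.3% of all genes against 4.79% without it. CD37, CD9, TSPAN5, TSPAN9, TSPAN14 and TSPAN17 were gained. Libraries of the same number deviated from their group means with a correlation of 0.27 across genes, and since no label or method ties a number to a day or culture, the design is read as unpaired. Lengths over all annotated exons, added after the data were seen, left 13 genes at 1 CPM per kb or more against 16 and moved the order of levels and the TspanC8 shares, as given above.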
